A study of Mus musculus with 8 samples.

Results

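Genomic imprinting is the expression of a gene mainly from the copy inherited from one parent, set by DNA methylation laid down in the germ line at short control regions. Imprinted genes lie in domains, in which a control region often governs a growth-promoting and a growth-restraining gene or a long noncoding RNA. In mouse hematopoietic stem cells (HSCs) several of them are known for their part in quiescence, among them Cdkn1c, H19, Igf2, Dlk1 and Meg3. Chromatin accessibility was examined here in 8 such domains, named for 10 genes: Peg3, H19 and Igf2, Cdkn1c, Dlk1 and Meg3, Grb10, Plagl1, Gnas and Mest. Every deposited ATAC-seq peak lying fully inside a fixed window of the mm9 build around each domain was taken, which gave 114 of the 126871 peaks of the series.

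ATAC-seq reads out open chromatin through the places where a transposase inserts sequencing adapters. The libraries came from HSCs of C57BL/6 mice, 4 labelled old and 4 labelled young, sorted from bone marrow by the LSK CD150+ CD48- gate, which takes cells without lineage markers that carry Sca-1, Kit and CD150 but lack CD48. The labels used here give no ages or sex, nor whether each replicate was a mouse of its own, so the spread between libraries may be technical. The table names peaks by position only, so the markers of the sort were not checked here and no peak was assigned to a promoter, exon or intron. Library totals ran from 4200905 to 5129684 counts. The windows were selected on the difference between these old and young libraries, so all differences below are descriptions. In bulk libraries a change in how open each cell is, a change in the share of cells in which a region is open, and a change on 1 of the 2 parental copies cannot be told apart.

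Values are CPM, the counts of a peak scaled to a common library size, computed from the deposited counts with TMM scaling. Of the 114 peaks, 55 passed a filter on low counts and entered a fit over all 73164 such peaks (edgeR quasi-likelihood test). Calls were made where the p adjusted by Benjamini-Hochberg over that fit was below 0.05, and each log2 fold change is old minus young. The SE of a log2 fold change is its absolute value divided by the square root of the test's F statistic. It is therefore approximate, and too small where a group holds very few counts. Old replicate 4 lay closer to the young libraries than the other old libraries did at many of the peaks described below.

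The sequences around the RefSeq starts of 3 of the genes are shown because methylation of CG pairs at promoters of this kind, on the maternal copy, carries the imprint of Peg3, Plagl1 and Mest. RefSeq sequences of build GRCm38.p6 were matched by symbol for 8 of the 10 genes. Each runs 5′ to 3′ on the gene's strand from 250 bases before to 50 after the start, taking the start with the most CG pairs where a gene has several, and the CG pairs stand in capitals.
Peg3, chr7:6730370-6730669, minus strand: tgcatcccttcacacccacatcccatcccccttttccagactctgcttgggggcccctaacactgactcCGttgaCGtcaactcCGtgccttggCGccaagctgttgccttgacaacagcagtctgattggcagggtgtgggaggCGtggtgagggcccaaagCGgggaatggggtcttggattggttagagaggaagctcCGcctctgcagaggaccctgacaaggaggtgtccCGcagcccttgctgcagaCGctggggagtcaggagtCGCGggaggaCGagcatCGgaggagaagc
Plagl1, chr10:13090582-13090881, plus strand: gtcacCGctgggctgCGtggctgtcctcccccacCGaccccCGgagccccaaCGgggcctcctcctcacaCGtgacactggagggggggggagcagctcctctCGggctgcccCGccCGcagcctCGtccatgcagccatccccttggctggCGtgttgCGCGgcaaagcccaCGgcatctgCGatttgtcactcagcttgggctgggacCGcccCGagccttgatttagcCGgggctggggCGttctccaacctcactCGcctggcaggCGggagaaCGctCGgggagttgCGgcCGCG
Mest, chr6:30737800-30738099, plus strand: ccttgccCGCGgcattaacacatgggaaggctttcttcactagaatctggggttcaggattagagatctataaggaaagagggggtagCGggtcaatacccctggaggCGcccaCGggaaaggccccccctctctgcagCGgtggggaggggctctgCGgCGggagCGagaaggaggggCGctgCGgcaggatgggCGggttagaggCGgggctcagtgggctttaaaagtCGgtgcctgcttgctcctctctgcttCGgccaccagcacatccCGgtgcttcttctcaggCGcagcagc
The Peg3 promoter held 13 CG pairs, more than 62.1% of the 32851 promoters in the table, whose median was 7. The Plagl1 promoter held 26, more than 83.1% of promoters, and the Mest promoter 17, more than 68.6%. At their most CG-rich start, Grb10 had 45 CG pairs, Gnas 40, Igf2 24, Meg3 13 and Dlk1 9, so all 8 matched genes lay above the median, which the choice of the richest start favours. The Peg3 window overlaps that of Usp29, its neighbour on the opposite strand, by 263 of 300 bases. The letters TGCCGC, which hold the core bound by the imprint-keeping zinc finger protein ZFP57, were searched on both strands. They occurred 2 times in the Mest promoter, 1 time in the Plagl1 promoter and 0 times in the Peg3 promoter, while 11.6% of all promoters held them. Of the 8 matched genes 4 held them at their most CG-rich start, Grb10 and Meg3 with 1 each being the others. These letters hold a CG pair, so the choice of the richest start favours them too. The starts were not compared with promoters of like CG content, and nothing is read from these counts. The letters CCATNTT, with N any base, were searched too. They occurred at 0 of these 8 starts, while 16.1% of all promoters held them. These sequences are in another build than the peaks, so their overlap with peaks was not determined here.

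In old HSCs 11 of the 55 tested peaks were called higher and 0 lower, while 44 were not called. Among all tested peaks 10.0% were called higher and 10.4% lower, and since the windows were chosen with this contrast known, nothing is read from the members' share. At an unadjusted p below 0.05 there were 14 higher and 0 lower among the members, and 12061 higher and 12214 lower among all tested peaks. DESeq2 called 9 members higher and 0 lower, against 6.82% higher and 7.13% lower of all tested peaks. The called peaks lay in 5 domains, with 3 each in Peg3, Cdkn1c and Grb10 and 1 each in H19-Igf2 and Plagl1. The called H19-Igf2 peak and the called Peg3 peaks other than that from 6682094 to 6682589 passed the count filter only through their old libraries. The Dlk1-Meg3, Gnas and Mest domains had 0 called peaks in edgeR, 0 in DESeq2 and 0 at an unadjusted p below 0.05. The median log2 fold change was 0.19 over the 55 tested members, 0.18 without Peg3, and 0.01 over all tested peaks. Fitted values were positive at 41 members and negative at 14, and over all tested peaks at 37320 and 35844. All 4 old libraries lay above all 4 young ones at 7 tested members and below them at 0, and among all tested peaks the shares were 10.5% and 10.6%.

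**Figure D1:**
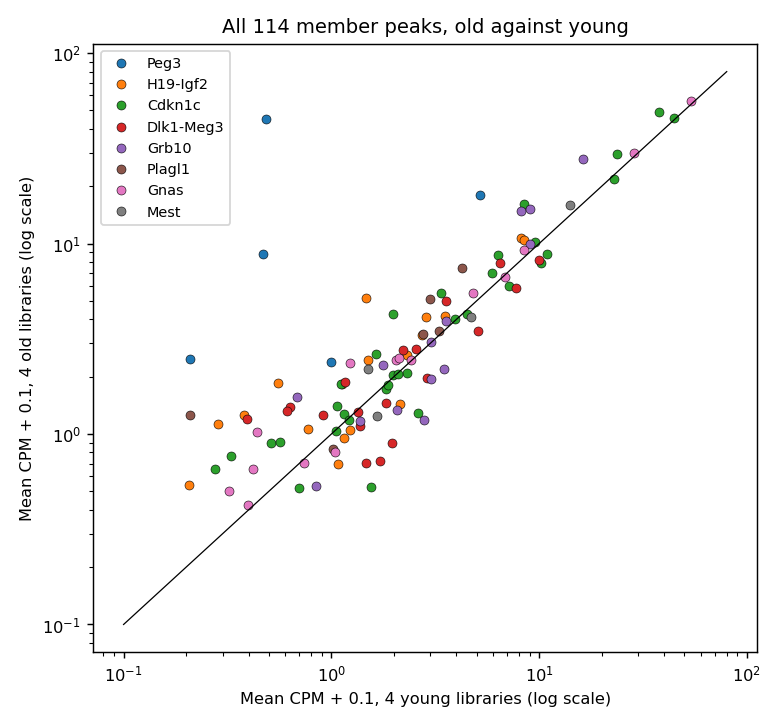
Mean CPM plus 0.1 of each of the 114 member peaks in the 4 old libraries (vertical axis, log scale) against the 4 young libraries (horizontal axis, log scale), coloured by domain, with a line of equal levels. Most peaks lie near the line, and 3 Peg3 peaks lie far above it, at 44.9, 8.72 and 2.37 CPM in old against 0.383, 0.366 and 0.108 CPM in young libraries before the offset.

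Summed over all member peaks, the Peg3 domain had 85.3, 77.0, 85.8 and 57.1 CPM in old replicates 1 to 4, against 6.06, 6.94, 8.0 and 6.46 CPM in young replicates 1 to 4. The old libraries lay far above the young ones, with old replicate 4 the lowest of the old. The means were 76.3 ± 13.4 CPM in old HSCs and 6.87 ± 0.837 CPM in young HSCs (SD, n = 4 libraries each), a ratio of 11. The sums did not overlap in 2 further domains. H19-Igf2 had 53.0 ± 6.65 CPM in old HSCs and 38.2 ± 2.08 CPM in young HSCs, a ratio of 1.38. Grb10 had 85.6 ± 11.4 CPM in old HSCs and 63.9 ± 4.42 CPM in young HSCs, a ratio of 1.33, and old replicate 4, at 69.7 CPM, was close to young replicate 1, at 69.5 CPM.

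In the other domains the sums overlapped. Plagl1 had 20.9 ± 2.88 CPM in old HSCs and 13.9 ± 3.34 CPM in young HSCs (SD, n = 4 libraries each), and only young replicate 2, at 18.5 CPM, reached the old range. Cdkn1c had 250.1 ± 19.4 CPM in old HSCs and 222.2 ± 4.71 CPM in young HSCs, with old replicates 1 to 3 at 248 to 265 CPM and old replicate 4 at 223 CPM, inside the young range. Gnas had 119.9 ± 7.82 CPM in old HSCs and 112.0 ± 7.14 CPM in young HSCs. Mest had 23.1 ± 2.71 CPM in old HSCs and 21.5 ± 2.37 CPM in young HSCs. Dlk1-Meg3 was the only domain with a lower mean in old libraries, at 49.3 ± 3.48 CPM against 51.9 ± 7.89 CPM in young HSCs. Their log2 ratios were 0.61, 0.17, 0.10, 0.11 and -0.06, in the order given. Per kilobase of peak, the summed level in old libraries was 28.5 CPM in Peg3, 15.7 in Cdkn1c, 14.8 in Gnas, 10.1 in Mest, 9.62 in Grb10, 7.45 in H19-Igf2, 7.12 in Plagl1 and 6.32 in Dlk1-Meg3. In young libraries Peg3 had the lowest of these levels, at 2.57 CPM per kilobase, and Cdkn1c the highest, at 13.9.

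**Figure D2:**
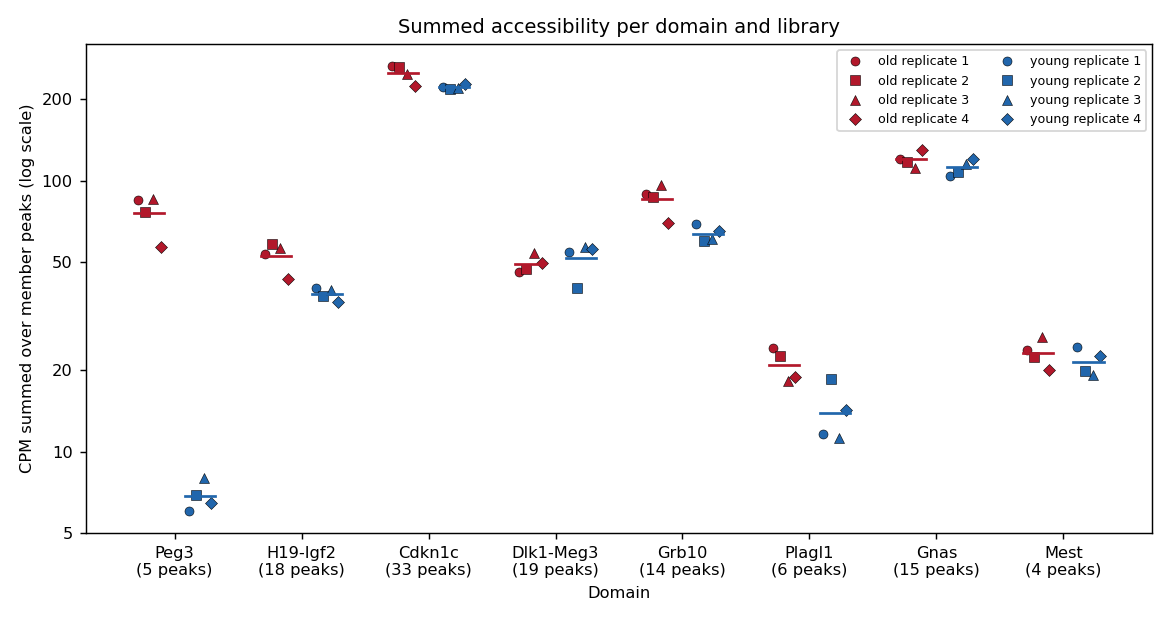
CPM summed over the member peaks of each domain (vertical axis, log scale) in each old (red, left) and young (blue, right) library, with marker shapes for replicates 1 to 4 and a line at each group's mean. The groups are separate in Peg3, H19-Igf2 and Grb10 and overlap in the other 5 domains, and old replicate 4 is the lowest old library in Peg3, H19-Igf2, Cdkn1c, Grb10 and Mest.

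Peg3 encodes a paternally expressed zinc finger protein, and its neighbours in the RefSeq order are the imprinted genes Zim2, Zim1 and Usp29. The window held 5 peaks, of which 4 formed a cluster between 6680201 and 6683121 on chromosome 7. The widest of them, 1293 bases from 6680473 to 6681765, had 49.9, 42.7, 51.9 and 35.1 CPM in old replicates 1 to 4, against 0.466, 0.421, 0 and 0.646 CPM in young replicates 1 to 4. It was open in every old library and held 0 to 3 counts in each young library. Its totals were 794 counts in the old and 7 in the young libraries, and the log2 fold change was 6.72 ± 0.28 (SE). With so few young counts this SE understates the uncertainty. The peak passed the count filter only through its old libraries, where it is high, so its call is no further support.

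The next peak of the cluster, from 6682094 to 6682589, was the one that was clearly open in young HSCs too. It had 18.8, 18.5, 20.8 and 13.9 CPM in old replicates 1 to 4, against 4.90, 4.84, 6.00 and 4.74 CPM in young replicates 1 to 4. The log2 fold change was 1.81 ± 0.19 (SE), so neighbouring peaks differed in old over young by 6.72 and by 1.81 on the log2 scale. The outer peaks of the cluster were below the count filter. Both were called higher in a fit without that filter, the left one at a log2 fold change of 4.09 and the right one at 1.36. The left one also passed the filter and was called in 5 of the 8 fits that left out 1 library (old replicate 4 or any young replicate). It passed there only through its old libraries, where it is high, so these calls are no further support. The one from 6680201 to 6680401 had 15, 11, 10 and 5 counts in old replicates 1 to 4, against 0, 0, 0 and 2 counts in young replicates 1 to 4. The one from 6682890 to 6683121 had 41 counts in all in old and 16 in young libraries, and its groups overlapped.

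A further peak lay apart from the cluster, from 6648958 to 6649411. It had 10.9, 10.7, 7.84 and 5.37 CPM in old replicates 1 to 4, against 0, 0, 1.25 and 0.215 CPM in young replicates 1 to 4, a log2 fold change of 4.56 ± 0.54 (SE). All old libraries were above all young ones. The young total was 6 counts, 5 of them in young replicate 3, and without that library the fitted log2 fold change was 6.43. The SE of this peak understates the uncertainty too. It also passed the count filter only through its old libraries, so its call is no further support. Within 250000 bases of the window there were 4 peaks on the left and 3 on the right, of which 3 were tested. Of these 0 were called in edgeR and 0 in DESeq2, with 1 at an unadjusted p below 0.05. The nearest peaks outside the window lay 212403 bases to the left and 171029 bases to the right, and both were weak, at 2.42 ± 0.963 and 1.56 ± 0.830 CPM in old against 1.24 ± 0.409 and 1.09 ± 0.466 CPM in young HSCs (SD, n = 4 libraries each).

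**Figure D3:**
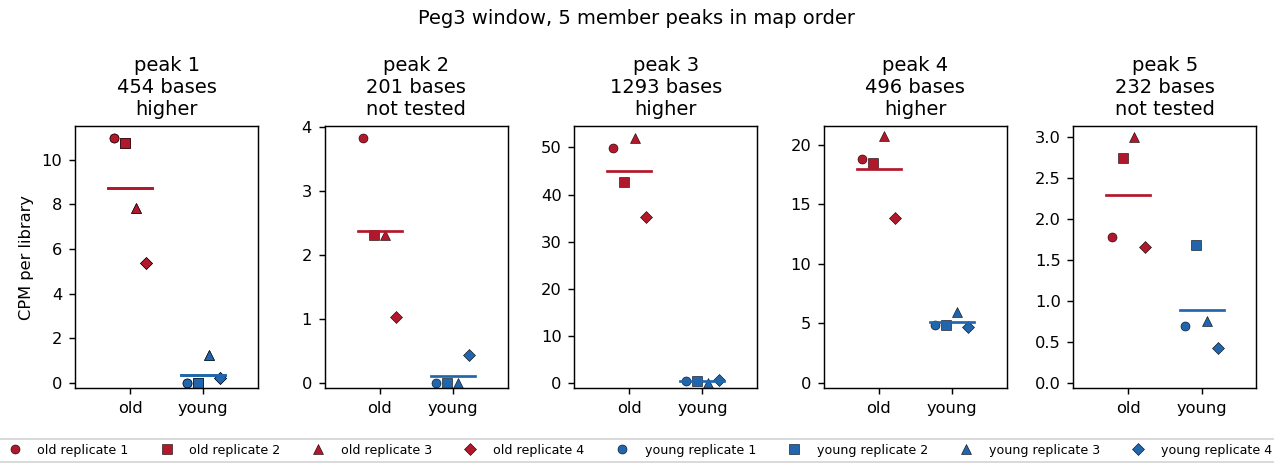
CPM per library (vertical axes, linear, each with its own scale) of the 5 peaks of the Peg3 window in map order, old at the left and young at the right of each panel, with marker shapes for replicates and lines at group means. Peak 3 reaches 51.9 CPM in old libraries with at most 0.646 CPM in young ones, peak 4 is open in both groups, and peaks 2 and 5 were below the count filter.

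Plagl1 encodes another paternally expressed zinc finger protein, a transcription factor that in mice is known to regulate a network of imprinted genes. Of its 6 peaks 4 were tested and all 4 had positive log2 fold changes, from 0.05 to 0.80. The strongest peak, on chromosome 10 from 12810258 to 12811180, had 8.40, 6.73, 5.54 and 8.89 CPM in old replicates 1 to 4, against 3.96, 5.68, 2.75 and 4.31 CPM in young replicates 1 to 4. It was called higher, with a log2 fold change of 0.80 ± 0.25 (SE), although old replicate 3 lay just below young replicate 2. The call was lost under DESeq2 and in 4 of the 8 fits that left out 1 library (old replicate 1 or young replicate 1, 3 or 4), with log2 fold changes of 0.66 to 0.99 over the 8 fits. The peak from 12796644 to 12797360 had 5.03 ± 1.40 CPM in old HSCs and 2.88 ± 1.15 CPM in young HSCs (SD, n = 4 libraries each) and was not called, except without old replicate 4 (log2 fold change 0.89) or without young replicate 2 (1.0). The weak peak from 12780715 to 12780914 held 21 counts in old libraries, 11 of them in old replicate 2, and 2 in young libraries. Its groups overlapped and it was below the count filter. The fit without that filter called it higher, as it did 8.46% of all peaks.

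Cdkn1c encodes a maternally expressed inhibitor of cyclin-dependent kinases known to keep mouse HSCs quiescent, and the paternal noncoding RNA Kcnq1ot1 silences the domain in cis. Its window was the widest, at 210 kb, and held 33 peaks, of which 16 were tested, 3 were called higher, 10 had positive and 6 negative log2 fold changes. Its peak with the highest mean CPM, on chromosome 7 from 150481516 to 150482879, had 48.4, 45.6, 42.4 and 45.3 CPM in old replicates 1 to 4, against 43.4, 46.5, 41.5 and 47.6 CPM in young replicates 1 to 4. The groups overlapped fully, at a log2 fold change of 0.02 ± 0.08 (SE). Per kilobase it averaged 33.1 CPM over the 8 libraries, next to 33.3 for the peak from 150646735 to 150647529. This second peak had 29.3 ± 4.60 CPM in old HSCs and 23.7 ± 4.12 CPM in young HSCs (SD, n = 4 libraries each) and was not called, while it was called without old replicate 4 (log2 fold change 0.41).

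The 3 called Cdkn1c peaks lay between 150575118 and 150601390, and in each of them old replicate 4 was inside the young range. The peak from 150575118 to 150576698 had 54.2, 53.9, 52.8 and 34.7 CPM in old replicates 1 to 4, against 33.8, 38.5, 40.3 and 37.9 CPM in young replicates 1 to 4, a log2 fold change of 0.37 ± 0.12 (SE). Old replicates 1 to 3 were above all young libraries and old replicate 4 was not. The peak from 150585680 to 150586439 had 18.8, 18.3, 18.5 and 8.27 CPM in old replicates 1 to 4, against 8.86, 6.31, 10.5 and 7.76 CPM in young replicates 1 to 4, a log2 fold change of 0.93 ± 0.24. The same 3 old libraries stood about level with each other and above all young ones. The weaker peak from 150600785 to 150601390 had 3.82, 5.68, 5.30 and 1.86 CPM in old replicates 1 to 4, against 3.03, 0.842, 1.25 and 2.37 CPM in young replicates 1 to 4, a log2 fold change of 1.14 ± 0.40. Without old replicate 4 the 3 values were 0.52, 1.17 and 1.41. The first peak was called in 1 of the 8 fits with a library left out, the one without old replicate 4, the second in all 8 and the third in 2 of 8. Between these peaks lay tested peaks that were not called, from 150583091 to 150583615 with a log2 fold change of -0.10 ± 0.27 and from 150600104 to 150600630 with -0.01 ± 0.41.

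Grb10 encodes an adaptor protein that restrains signalling from the insulin and insulin-like growth factor receptors, and is expressed mainly from the maternal copy outside the brain. Of 14 peaks 8 were tested, and the 3 called higher included the strongest. That peak, on chromosome 11 from 11936344 to 11938105, had 28.8, 31.8, 32.8 and 17.4 CPM in old replicates 1 to 4, against 14.5, 15.8, 16.5 and 18.1 CPM in young replicates 1 to 4, a log2 fold change of 0.76 ± 0.17 (SE). Old replicate 4 lay inside the young range. The peak from 11925361 to 11926638 had 16.5, 13.5, 17.1 and 13.2 CPM in old replicates 1 to 4, against 7.46, 10.1, 10.0 and 8.40 CPM in young replicates 1 to 4, a log2 fold change of 0.74 ± 0.17. Here all old libraries were above all young ones, and old replicate 4 lay close to old replicate 2. The peak from 11848265 to 11848923 had 17.6, 15.4, 16.8 and 9.10 CPM in old replicates 1 to 4, against 7.93, 8.84, 7.75 and 7.76 CPM in young replicates 1 to 4, a log2 fold change of 0.85 ± 0.20. Its old libraries were all above the young ones, old replicate 4 by little. All 3 were called in each of the 8 fits with a library left out.

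The other Grb10 peaks did not follow these 3. The peak from 11848960 to 11849507, which starts just after the last one ends, had 2.94 ± 0.647 CPM in old HSCs and 2.93 ± 0.788 CPM in young HSCs (SD, n = 4 libraries each). The peaks from 11832259 to 11833066 and from 11842598 to 11843189 had the most negative log2 fold changes of all tested members, -0.67 ± 0.33 and -0.64 ± 0.36 (SE), and neither was called. Within 250000 bases on the left of the window, 8 of 21 tested peaks were called lower and 0 higher in edgeR, with a median log2 fold change of -0.56. DESeq2 called 5 lower and 0 higher there, and 11 passed an unadjusted p below 0.05 in either direction. Among all tested peaks edgeR called 10.4% lower and 10.0% higher, and DESeq2 called 7.13% lower and 6.82% higher. On the right there were 6 peaks, of which 2 were tested, with a median log2 fold change of 0.55 and 0 calls in edgeR, 0 in DESeq2 and 0 at an unadjusted p below 0.05. The difference between window and flanks was not tested.

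H19 is a maternally expressed noncoding RNA and Igf2 a paternally expressed growth factor, and both are governed by a control region that CTCF binds on the maternal copy. Of their 18 peaks 7 were tested, and all 7 had positive log2 fold changes, from 0.19 to 1.87. The called peak, on chromosome 7 from 149774356 to 149774934, had 5.09, 6.31, 6.23 and 2.69 CPM in old replicates 1 to 4, against 2.10, 1.68, 1.5 and 0.215 CPM in young replicates 1 to 4, a log2 fold change of 1.87 ± 0.41 (SE). All old libraries were above all young ones, old replicate 4 by the least, and the call held in each of the 8 fits with a library left out. The peak passed the count filter only through its old libraries, where it is high, so these calls are no further support. An untested peak further along, from 149775993 to 149776299, held 31 counts in old and 8 in young libraries, with the groups separate. Among the untested peaks, the one from 149756601 to 149756800 also had separate groups, with 18 counts in old and 3 in young libraries. Both were called higher in the fit without the count filter. Separate groups with old above were found at 2834 of all peaks below the filter, and with old below at 4865. The peaks below the filter are those of the 126871 not among the 73164 tested. Nothing is read from the separate groups of these weak peaks.

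The strongest H19-Igf2 peak, from 149765996 to 149766807, had 10.7, 12.6, 11.1 and 8.06 CPM in old replicates 1 to 4, against 7.23, 8.63, 9.25 and 7.32 CPM in young replicates 1 to 4. Its log2 fold change was 0.39 ± 0.19 (SE) and it was not called, except without old replicate 4, when the value was 0.51. The second strongest, from 149844565 to 149845550, had 10.3 ± 1.04 CPM in old HSCs and 8.32 ± 0.556 CPM in young HSCs (SD, n = 4 libraries each). There all old libraries were above all young ones, without a call.

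**Figure D4:**
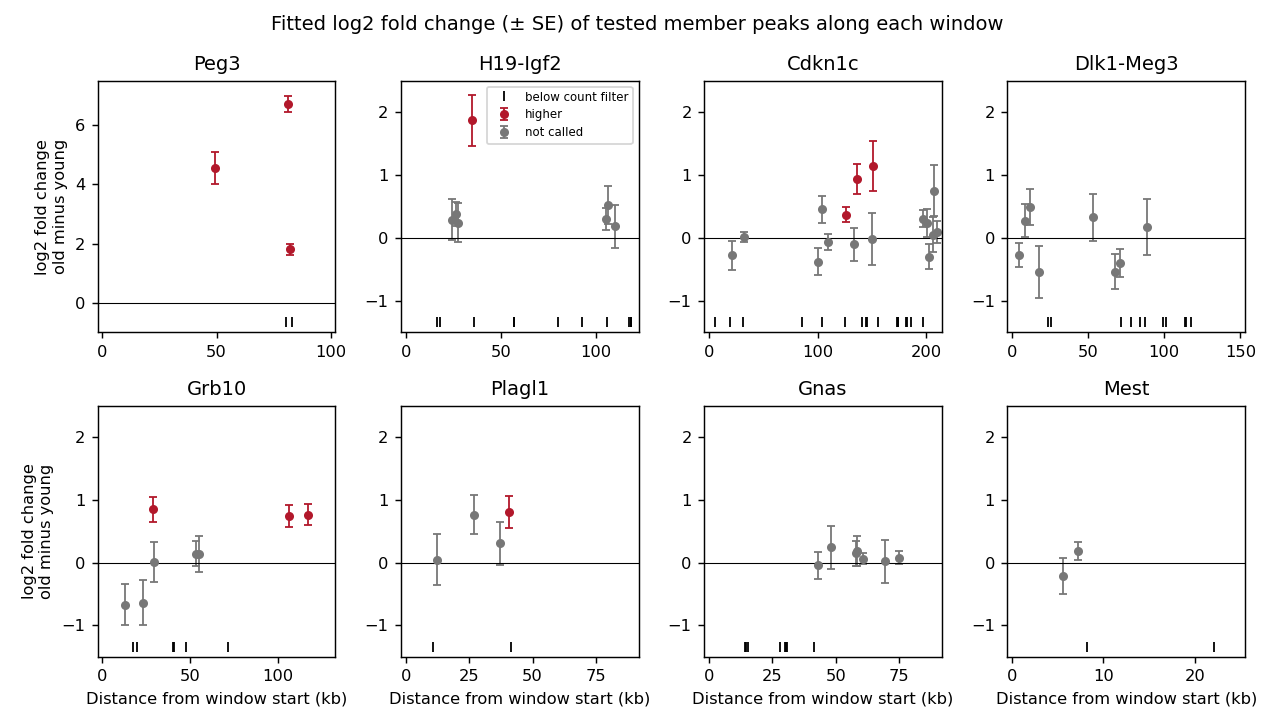
Fitted log2 fold change, old minus young, with its SE (vertical axes; the Peg3 panel has a wider scale) of the tested member peaks against distance from the window start in kilobases (horizontal axes), red where called higher and grey where not called; ticks mark peaks below the count filter. Called peaks sit among uncalled ones in H19-Igf2, Cdkn1c, Grb10 and Plagl1, and none of the tested peaks of Dlk1-Meg3, Gnas and Mest were called.

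Dlk1 encodes a paternally expressed membrane protein related to the ligands of Notch receptors, and Meg3 is a maternally expressed noncoding RNA. Their domain held 19 peaks, 8 of them tested, with 4 positive and 4 negative log2 fold changes between -0.55 and 0.49. The peak with the highest mean CPM, on chromosome 12 from 110684298 to 110684886, had 6.62, 9.89, 6.92 and 9.10 CPM in old replicates 1 to 4, against 9.09, 9.26, 11 and 10.1 CPM in young replicates 1 to 4. The groups overlapped, at a log2 fold change of -0.27 ± 0.19 (SE). The peak with the largest change, from 110697687 to 110698148, had 1.27, 1.68, 1.85 and 2.69 CPM in old replicates 1 to 4, against 3.50, 0.842, 2.75 and 4.09 CPM in young replicates 1 to 4, or -0.55 ± 0.41. Young replicate 2 was below all old libraries there and the other young libraries above them. The rightward part of the window held weak peaks only: the 5 peaks between 110779084 and 110797588 had mean levels of at most 1.28 CPM in old and 1.85 CPM in young HSCs. In 2 of them the old libraries were all above the young ones, at 19 against 5 and 23 against 9 counts in all, and in 1 all below, at 11 against 28 counts. Among all peaks below the count filter, which are those of the 126871 not among the 73164 tested, 2834 had all old libraries above and 4865 all old libraries below the young ones. Among all members below the filter these counts were 6 and 1, and nothing is read from them. The peak that straddles the left edge of the window, from 110679415 to 110680004, is no member and had 26.6 ± 2.48 CPM in old HSCs and 22.7 ± 2.53 CPM in young HSCs (SD, n = 4 libraries each).

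Gnas encodes the stimulatory G protein alpha subunit and has several imprinted alternative first exons. Its 15 peaks held the strongest member of all, on chromosome 2 from 174154606 to 174156603, with 55.0, 52.2, 50.5 and 66.4 CPM in old replicates 1 to 4, against 48.7, 54.3, 55.3 and 56.2 CPM in young replicates 1 to 4. The groups overlapped, at a log2 fold change of 0.06 ± 0.09 (SE), which was -0.02 without old replicate 4. Its 7 tested peaks had log2 fold changes from -0.04 to 0.24, and the largest, 0.24 ± 0.34, belonged to the peak from 174142840 to 174143679. That peak had 2.29, 2.95, 2.08 and 2.27 CPM in old replicates 1 to 4, against 2.33, 2.10, 1.25 and 2.37 CPM in young replicates 1 to 4, with the groups overlapping. The second strongest Gnas peak, from 174169454 to 174170494, had 29.9 ± 3.43 CPM in old HSCs and 28.4 ± 1.41 CPM in young HSCs (SD, n = 4 libraries each). The strongest Gnas and Cdkn1c peaks had the smallest standard errors of the tested members, 0.09 and 0.08 on the log2 scale. Further left, the peak from 174109529 to 174109993 was below the count filter, with 40 counts in old and 20 in young libraries. Without old replicate 4 it passed the filter, only through its old libraries, and was called higher at a log2 fold change of 1.28. That call is no further support.

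Mest encodes a paternally expressed member of the alpha/beta hydrolase family and hosts a microRNA. Its window held 4 peaks, of which 2 were tested. The stronger, on chromosome 6 from 30686752 to 30687734, had 16.0, 15.6, 18.2 and 13.6 CPM in old replicates 1 to 4, against 14.7, 12.6, 13.3 and 15.1 CPM in young replicates 1 to 4. The groups overlapped, at a log2 fold change of 0.19 ± 0.15 (SE). The other, from 30685277 to 30685842, had 4.84, 3.58, 4.61 and 3.10 CPM in old replicates 1 to 4, against 6.76, 4.42, 2.75 and 4.52 CPM in young replicates 1 to 4, or -0.21 ± 0.29.

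The 11 called peaks differed in where old replicate 4 lay, on a scale of log2 CPM that puts the young average at 0 and the average of old replicates 1 to 3 at 1. It sat at 0.93, 0.79 and 0.74 in the 3 Peg3 peaks, at 0.70 in the Grb10 peak from 11925361 to 11926638 and at 1.53 in the Plagl1 peak. It sat at 0.48 in the H19-Igf2 peak, at 0.17 and 0.11 in the other Grb10 peaks, and at -0.22, 0.01 and 0.08 in the Cdkn1c peaks. The part of this library in the differences was not tested beyond leaving it out, which gave 16 peaks called higher and 0 lower. Without it the shares over all tested peaks were also larger, at 14.5% higher and 15.5% lower.

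**Figure D5:**
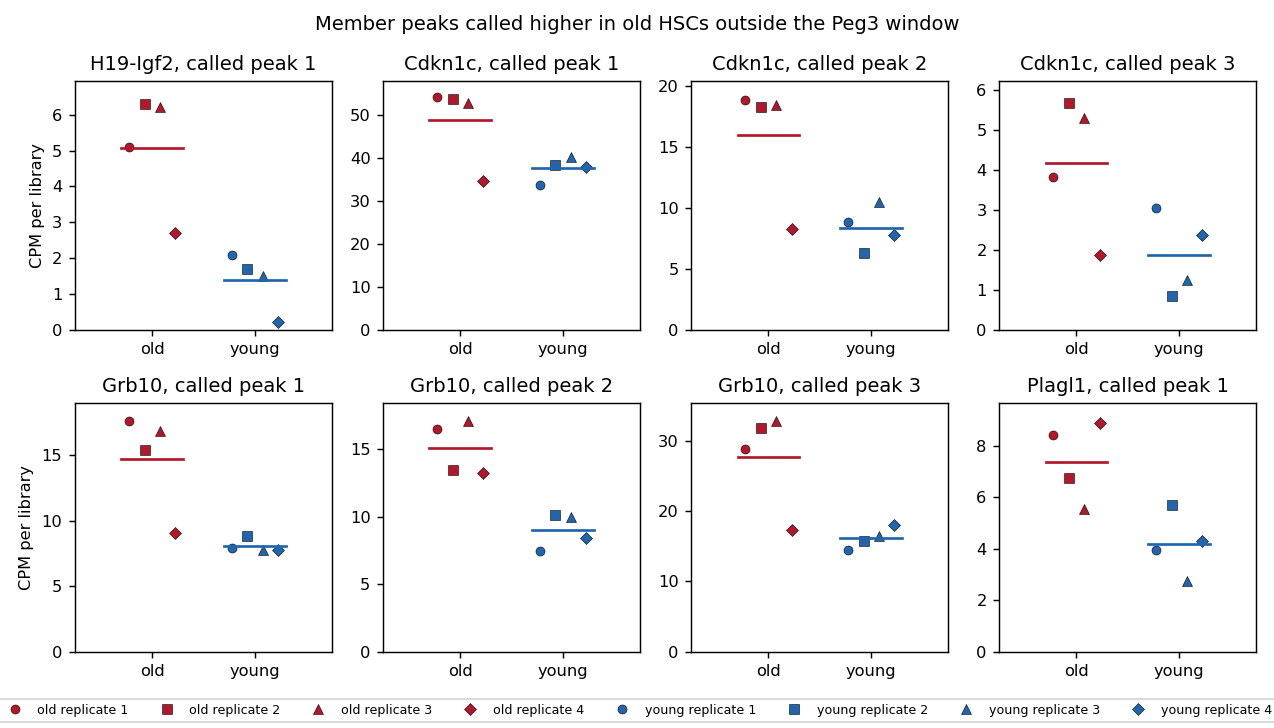
CPM per library (vertical axes from 0, each with its own scale) of the 8 called peaks outside the Peg3 window in map order within each domain, old at the left and young at the right of each panel, with marker shapes for replicates and lines at group means. Old replicate 4 (red diamond) lies among the young libraries in the 3 Cdkn1c peaks and in Grb10 peak 3, and is the highest old library in the Plagl1 peak.

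As a class the members were somewhat weaker and narrower than the deposited peaks as a whole. Of the members 48.2% passed the count filter, against 57.7% of all peaks. The tested members had a median of 10.9 CPM per kilobase and a median width of 566 bases, against 11.7 CPM per kilobase and 621 bases for all tested peaks. These properties were not used to choose the windows and are given without a test. Outside the windows, the flanks of H19-Igf2, Cdkn1c, Dlk1-Meg3, Plagl1, Gnas and Mest, each 250000 bases long, had median log2 fold changes between -0.16 and 0.52. The highest came from 2 tested peaks. Over all tested peaks of the series 10.0% were called higher and 10.4% lower in edgeR. Called higher and lower in edgeR, on the left and then the right, were 4 and 5 of 30 and 0 and 0 of 5 tested at H19-Igf2. Cdkn1c had 2 and 4 of 21, and 2 and 5 of 22. Dlk1-Meg3 had 3 and 0 of 7, and 1 and 0 of 2. Plagl1 had 0 and 3 of 25, and 2 and 1 of 13. Gnas had 0 and 1 of 5, and 1 and 0 of 8. Mest had 2 and 0 of 17, and 0 and 0 of 2.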

How the data were processed

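The authors deposited raw counts for 1 common set of peaks in all 8 libraries. Bowtie2, MACS2, Picard, SAMtools, FastQC, Trim Galore and the mm9 build appear in the submitters' processing notes. How peaks were merged, how reads were counted and whether read ends were shifted is not given in the sources used here. Per the labels' protocols, Omni-ATAC and a Nextera kit were used.

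Counts were filtered with filterByExpr (minimum count 10, minimum total 15), leaving 73164 peaks with 94.2% of counts. Old and young were compared in edgeR 4.0.16 (TMM, glmQLFit robust, glmQLFTest; R 4.3.3) on group alone, and DESeq2 1.42.0 was an alternative. CPM used the effective library sizes, and peak width is end minus start plus 1. The code of the fit was run on counts simulated from its own estimates with known changes. That run checks the code and not the calls in these data.

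The windows, gene lists and rule for named peaks were chosen with earlier results of these data known. Values per library are printed for each domain's peak of highest mean CPM, its tested peak of largest absolute log2 fold change and its called peaks. Further peaks were chosen after their values were seen. All columns were used.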

Additional observations from a re-analysis of the deposited data

Results flagged for a closer look

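Groups of 4 libraries were screened for 1 library far from the other 3, over 54 groups from the domain sums and the named peaks. In 5 of them a library stood apart; chance alone marks about 1 group in 20, which is 2.7 of 54. Old replicate 4 was low at the Cdkn1c peak from 150575118 to 150576698, with 34.7 CPM against 52.8 to 54.2 CPM in the other old libraries. It was also low at the Cdkn1c peak from 150585680 to 150586439, with 8.27 CPM against 18.3 to 18.8 CPM. Young replicate 2 was low in the Dlk1-Meg3 sum, with 40.2 CPM against 54.8 to 57.0 CPM in the other young libraries, and its removal moved that log2 ratio to -0.19. It was high at the Grb10 peak from 11848265 to 11848923, with 8.84 CPM against 7.75 to 7.93 CPM. Young replicate 3 was high at the Peg3 peak from 6682094 to 6682589, with 6.00 CPM against 4.74 to 4.90 CPM.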

How the results depend on the processing

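The alternatives were DESeq2 size factors, total count scaling, no count filter, DESeq2's test, a replicate block, peaks overlapping a window, an adjusted p below 0.01, and each library left out in turn. The 0 member peaks called lower stayed 0 in all of them. The 11 called higher became 7 at an adjusted p below 0.01, 16 without the count filter, 9 in DESeq2 and 8 to 16 with a library left out, highest without old replicate 4. Over all peaks, 7352 called higher became 3694, 10733, 4993 and 5184 to 10997 under the same settings. The numbers of tested peaks differed between some settings. As shares of all tested peaks, 10.0% higher became 8.46% without the count filter, 6.82% in DESeq2 and 6.84% to 14.5% with a library left out. The members tested were 55 in the main fit, 114 without the filter and 56 to 64 with a library left out. With the replicate block 11 were called higher, 10 of them the same peaks: the Cdkn1c peak from 150600785 to 150601390 was lost (log2 fold change 1.12) and that from 150646735 to 150647529 gained (0.31). Over all tested peaks the fit with the block called 11.1% higher and 11.8% lower. The labels used here do not say whether same-numbered libraries were processed together, and this was not tested. Their deviations correlated at -0.01, 0.07, 0.05 and 0.18 in the 4 pairs, the last being the highest of any old and young pair. Not every library correlated best with its own number. Of the 11 called peaks 8 kept their call in every refit. The others were the Cdkn1c peaks from 150575118 to 150576698 and from 150600785 to 150601390 and the Plagl1 peak from 12810258 to 12811180, and the cause was not tested. Of the 8, the Peg3 peaks from 6648958 to 6649411 and from 6680473 to 6681765 passed the count filter only through their old libraries. So did the H19-Igf2 peak from 149774356 to 149774934. Their kept calls are no further support. With a library left out the log2 ratio of the domain sums was 3.41 to 3.61 for Peg3, 0.43 to 0.57 for H19-Igf2, 0.37 to 0.52 for Grb10 and 0.15 to 0.23 for Cdkn1c, each highest without old replicate 4.

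Among the 19 peaks given per library, signs turned at 3, all uncalled, and the other members were not followed. The Cdkn1c peak from 150481516 to 150482879 had -0.00999 with total count scaling, and -0.0154 to 0.0645 with a library left out, lowest without young replicate 3. The strongest Gnas peak had -0.0216 to 0.126, lowest without old replicate 4, and the Mest peak from 30685277 to 30685842 had -0.380 to 0.0245, highest without young replicate 1. Depth limits the 59 members below the count filter, where 1 count was worth 0.207 to 0.255 CPM.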
